A study of Arabidopsis thaliana with 18 samples.

Results

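The transcripts described here fell at least 4-fold when wild-type Arabidopsis thaliana seedlings were deprived of nitrogen and were at nearly the same low signal in seedlings that overexpress the transcription factor LBD37 or LBD38. They were chosen from group means of log2 signals: WT without added nitrogen (noN) minus WT in full nutrition (FN) at most -2, and each overexpresser minus WT in noN between -0.3 and 0.3. Of 22746 probe sets that are not array controls, 28 met the rule. The platform's annotation lists exactly 1 gene for 10 of them, 2 genes for 1 (264279_s_at) and none for 17, so 18 members are given by probe set only.

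Whole seedlings of the Col-0 ecotype, 9 days old, were profiled on 18 Affymetrix ATH1 arrays, 3 biological replicates for each of 6 groups. The noN groups were LBD37 overexpressers, LBD38 overexpressers and WT, which had 7 days of FN followed by 2 days without added nitrogen. The FN groups were T-DNA insertion mutants of LBD37, T-DNA insertion mutants of LBD38 and WT, which had 4 mM KNO3 throughout the 9 days. The promoter of the overexpression constructs and the number of lines are not given in the sources used here. Labels name liquid culture and, in another field, agar plates followed by wells. They do not say what was repeated between biological replicates. The p-values therefore weigh a difference only against the spread of these samples, which may be technical. The gene annotation used here, which leaves 8730 probe sets without a gene, lists no probe set with LBD37 or LBD38, so the targeted genes were not used to check the labels.

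Nitrate is both a nutrient and a signal in plants. Nitrate supply raises transcripts for its own uptake and reduction together with many regulators. LBD37 and LBD38 are LATERAL ORGAN BOUNDARIES DOMAIN factors that are induced by nitrate and known as repressors of nitrogen-responsive genes and of anthocyanin synthesis. CC-type glutaredoxins, a plant-specific class of small redox proteins that includes some of the members, are known to respond to nitrate and to act with TGA transcription factors.

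The 18 arrays had median log2 signals of 6.87 to 7.06, and replicates of a group correlated at 0.988 to 0.998 (Pearson's r, across probe sets). Replicate 3 of the LBD37 overexpresser stood apart: its signals had an interquartile range of 2.89, where the other 17 arrays had 3.06 to 3.28. All 8 measured tissue markers (4 of root, 4 of leaf and stomata) read above the lower quartile on all 18 arrays. In WT noN 3 of the 4 root markers were higher and 1 lower than in WT FN, and 1 of the 4 leaf and stomata markers was higher and 3 were lower (limma, 23.5% of all probe sets higher and 26.6% lower). SPCH, a stomatal lineage gene (AT5G53210), differed by -1.41 in WT noN from WT FN. In noN it differed from WT by 1.35 with LBD37 and 1.46 with LBD38. MUTE (AT3G06120), FMA (AT3G24140) and YAB3 (AT4G00180) moved less, by -0.26, 0.24 and -0.81 in WT noN from WT FN. Their differences from WT in noN were 0.21, 0.23 and 0.26 with LBD37 and 0.15, 0.16 and 0.32 with LBD38. The part of such tissue shifts in the members' fall was not tested. Signals of different probe sets are not comparable as transcript amounts, and in whole seedlings fewer cells of a type and less RNA per cell cannot be told apart.

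The fall in WT seedlings chose the members and is described without a test. Its median over the members was 5.82-fold, with a range of 4.03-fold to 103-fold, which is a median of -2.54 on the log2 scale against -0.07 over all probe sets. Every one of the 9 noN arrays read lower than every one of the 9 FN arrays at all 28 members, where 11.8% of all probe sets did so. The smallest gap between the lowest FN array and the highest noN array was 0.75 (log2). In WT noN the group means of the members ran from 3.4 to 9.51, with a median of 5.88, against 6.02 to 11.8 in WT FN, with a median of 9.25.

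The deepest fall was that of probe set 254550_at, which has no listed gene. It read 4.47, 4.72 and 4.21 in WT noN, against 10.87, 11.05 and 11.55 in WT FN, a difference of -6.69 ± 0.16 (log2, limma estimate ± SE). In the overexpressers it read 4.38, 4.83 and 4.44 with LBD37 and 4.70, 4.73 and 4.51 with LBD38, so that all 9 noN arrays lay in one narrow low band. On all 9 this signal was below the lower quartile of the array.

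AT1G49500 was the named gene with the deepest fall. Its signals were 5.70, 5.82 and 5.88 in WT noN, against 9.91, 10.19 and 10.13 in WT FN (-4.28 ± 0.15, 19.4-fold lower). The LBD37 overexpresser read 5.54, 5.75 and 5.73 and the LBD38 overexpresser 5.74, 5.47 and 5.66. The 3 noN groups overlapped one another and were more than 3 log2 units below every FN array.

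Further probe sets without a listed gene fell almost as far. Signals of 253502_at were 3.68, 3.53 and 3.62 in WT noN, against 6.99, 8.24 and 8.38 in WT FN (19.2-fold lower). Those of 252367_at were 5.52, 5.66 and 5.41 in WT noN, against 9.34, 9.64 and 10.34 in WT FN (18.9-fold lower). Neither pair of groups overlapped, although WT FN spread widely at both, with an SD of 0.76 and 0.51 (n = 3).

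Probe set 249862_at had an equally wide spread among the replete controls, reading 6.13, 6.21 and 6.06 in WT noN, against 9.20, 9.76 and 10.58 in WT FN (13.1-fold lower). By contrast 264014_at was tight in WT FN, with 5.19, 5.4 and 5.62 in WT noN, against 9.30, 9.31 and 9.45 in WT FN (15.4-fold lower). Signals of 263805_at were 5.76, 6.04 and 5.95 in WT noN, against 9.12, 9.26 and 9.02 in WT FN (9.30-fold lower). Replete arrays were therefore not equally reproducible across the members, whose within-group SD in FN ran from 0.047 to 0.79, with a median of 0.19 against 0.11 over all probe sets.

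The fall of 246114_at left a clear signal in noN. It read 8.07, 8.0 and 7.81 in WT noN, against 11.09, 10.99 and 11.31 in WT FN (8.99-fold lower). At 265342_at the signals were 4.84, 4.99 and 5.03 in WT noN, against 7.90, 7.71 and 8.14 in WT FN (7.80-fold lower). The groups did not overlap at either, and 8 of the 9 noN arrays read below their lower quartile at 265342_at, against 0 at 246114_at.

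A further unnamed pair and the glutaredoxin gene AT4G15680, described with its relatives, had the next deepest falls. Probe set 251677_at read 5.39, 4.85 and 4.97 in WT noN, against 7.92, 7.59 and 8.0 in WT FN (6.82-fold lower). Probe set 254828_at read 5.93, 5.50 and 5.81 in WT noN, against 8.76, 8.0 and 8.61 in WT FN (6.53-fold lower). At both the lowest FN array of WT was more than 2 log2 units above the highest noN array of WT.

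The other named members hold genes of diverse function. AT3G12900 encodes scopoletin 8-hydroxylase, which makes the iron-mobilizing coumarin fraxetin, and read 5.15, 5.20 and 5.4 in WT noN, against 7.49, 7.76 and 7.87 in WT FN (5.49-fold lower). AT3G08740, an elongation factor P family gene of protein synthesis, averaged 9.19 ± 0.23 in WT noN and 11.47 ± 0.07 in WT FN (SD, n = 3 each). AT1G56050, which encodes a GTP-binding protein, averaged 6.93 ± 0.13 in WT noN and 9.20 ± 0.05 in WT FN (SD, n = 3 each). The groups did not overlap at any of these genes.

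AT3G09580, an oxidoreductase gene of the FAD/NAD(P)-binding type, was 5.42-fold lower in WT noN than in WT FN. AT2G39920, which encodes an acid phosphatase-like protein, was 5.30-fold lower, and AT2G46220 4.95-fold. AT2G20670, a member of the DUF506 family of proteins, was 4.89-fold lower, with 5.25, 5.19 and 5.05 in WT noN, against 7.21, 7.37 and 7.79 in WT FN. The remaining 8 members, 7 of them with no listed gene and 264279_s_at with 2, fell between 4.03- and 6.16-fold.

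**Figure D1:**
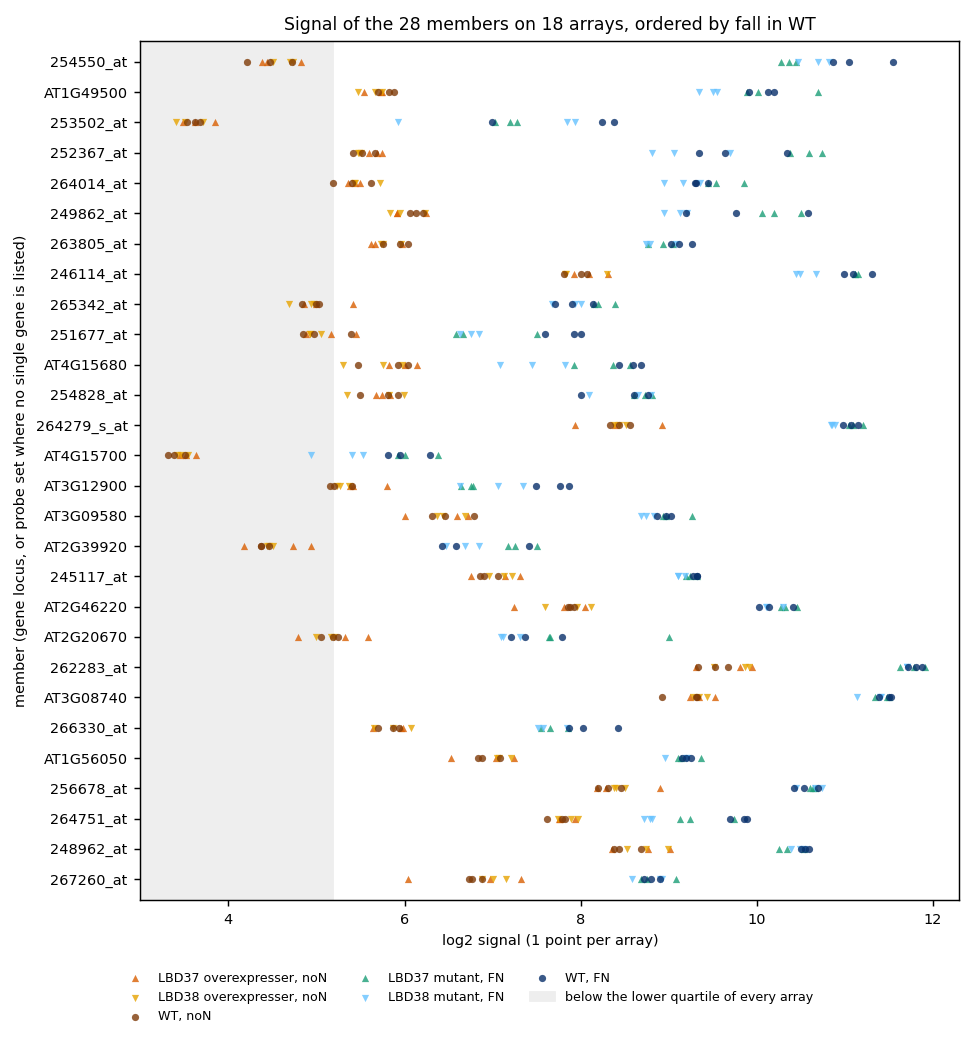
Log2 signal of each of the 28 members on the 18 arrays, 1 point per array, with members ordered from the deepest fall in WT (top) to the shallowest and the grey band marking signals below the lower quartile of every array (5.19). At every member the 9 noN arrays lie to the left of the 9 FN arrays, by 0.75 at the least.

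In noN, the difference of either overexpresser from WT was bounded by the rule and is likewise a description. The LBD37 overexpresser minus WT ran from -0.18 to 0.28 over the members (median 0.08) and the LBD38 overexpresser minus WT from -0.18 to 0.26 (median 0.02), against a median of 0.01 over all probe sets in both. Of the 28 members, 14 read above WT in both overexpressers and 4 read below WT in both. At 0 members did every array of an overexpresser lie above or below every WT array, where this held for 15.1% (above) and 16.3% (below) of all probe sets with LBD37 and for 20.0% (above) and 15.6% (below) with LBD38. The rule used these differences, and both comparisons share the WT noN arrays. Without the LBD37 overexpresser array that stood apart, the rule found 30 probe sets, 25 of them among the 28.

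A small difference of means does not show equal expression. The 95% interval of the LBD37 overexpresser minus WT reached past 0.3 in one direction or the other at 26 of 28 members and ran from -0.77 to 0.85 at its widest, at 253502_at. For the LBD38 overexpresser it reached past 0.3 at 27 members and ran from -0.88 to 0.74 at the same probe set. It lay within 0.5 of 0 at 19 members for each overexpresser.

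The arrays of the overexpressers were also set against WT FN, again as a description that the rule largely fixes. Relative to WT FN the members were lower by 1.83 to 6.61 (log2) in the LBD37 overexpresser and by 1.79 to 6.51 in the LBD38 overexpresser.

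Some of the members stood among the dimmer signals of the arrays in noN. At 4 members (254550_at, 253502_at, AT4G15700 and AT2G39920) all 9 noN arrays read below the lower quartile of their array, which lay at 5.19 to 5.34. At 3 more (265342_at, 251677_at and AT2G20670) 5 to 8 noN arrays did, and at 264014_at and AT3G12900 1 and 2 did. The other 19 members stayed above the lower quartile on all 9 noN arrays, and their falls ran from 4.03- to 19.4-fold.

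Members close to a bound of the rule are given beside the nearest probe sets outside it that met every other bound. They are 267260_at, 248962_at and 264751_at, with falls of -2.01, -2.05 and -2.07 (log2), while 259193_at, 251701_at and AT2G37660 lay just outside with -1.99, -1.99 and -1.97. At the upper bound for the LBD37 overexpresser, AT3G12900, AT2G39920 and 248962_at lay inside with 0.28, 0.22 and 0.21, and AT5G11070, 263318_at and AT5G05250 outside with 0.34, 0.44 and 0.47. At the upper bound for the LBD38 overexpresser, 248962_at, 262283_at and 267260_at lay inside with 0.26, 0.26 and 0.21, and AT3G13470, 247376_at and 260221_at outside with 0.304, 0.32 and 0.36.

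At the lower bounds AT2G46220, 263805_at and AT1G49500 were the lowest inside for LBD37, with -0.18, -0.17 and -0.12, and 267262_at, AT5G02160 and 249327_at lay outside with -0.35, -0.36 and -0.37. For LBD38 AT1G49500, AT4G15680 and 249862_at were the lowest inside, with -0.18, -0.14 and -0.13, and AT3G15630, with -0.37, was the only probe set outside that met every other bound. Probe sets that left the window in both overexpressers are not listed here.

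The members are 28 of 124 probe sets whose mean in WT noN was at least 4-fold below that in WT FN. Among the other 96, both overexpressers exceeded WT noN by more than 0.3 at 56 and lay more than 0.3 below it at 10, while at 30 exactly 1 overexpresser was inside the window. None had the overexpressers outside the window in opposite directions. The median overexpresser difference over these 96 was 0.45 with LBD37 and 0.54 with LBD38.

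**Figure D2:**
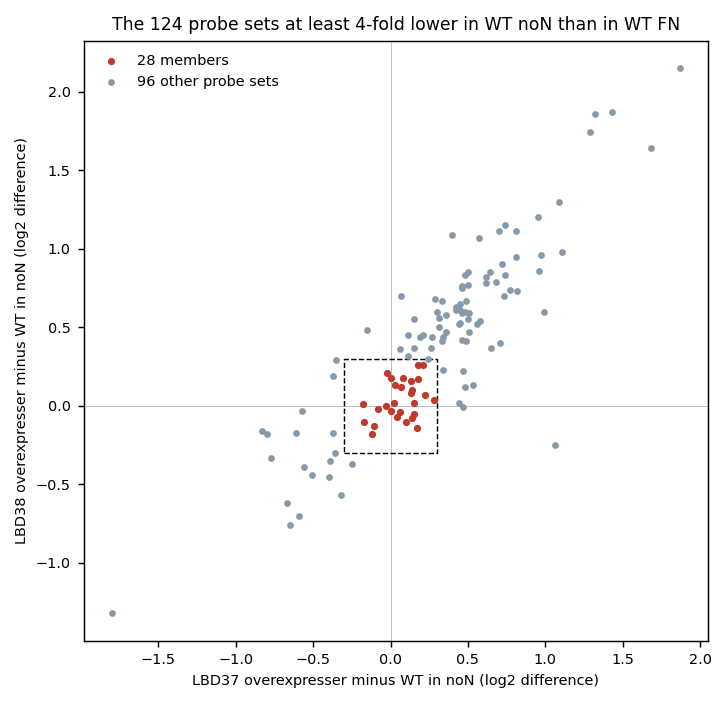
Log2 difference from WT in noN of the LBD37 overexpresser (horizontal axis) and the LBD38 overexpresser (vertical axis) for the 124 probe sets with a fall of at least 4-fold in WT, 1 point per probe set. The dashed square is the window of 0.3 around 0, which holds the 28 members and which most of the other 96 leave towards the upper right, where 56 lie above 0.3 on both axes.

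The mutants in FN provided arrays that the rule did not use. They ask whether these transcripts differed from WT under replete nitrogen in T-DNA insertion mutants of either gene. All 6 mutant arrays read above all 9 noN arrays at all 28 members, where 12.9% of all probe sets did so, but the rule had chosen low noN arrays. The WT FN arrays did enter the rule, and since a high WT FN value favours membership, a mutant value below WT is partly built in. Both mutants are compared with the same WT arrays. The difference between the mutants uses none of the arrays of the rule.

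The LBD38 mutant had 6 of 28 members lower than WT and 0 higher (limma, adjusted p threshold 0.05), where 0.598% of all probe sets were called lower and 0.589% higher. Over all probe sets there were 134 higher and 136 lower calls as deposited, but 196 higher and 125 lower ones once the array medians had been set equal. The median over the members was -0.23 (log2), against -0.04 over all probe sets. Of the 28 members 26 were below 0 and 2 above, where 37.2% of all probe sets were above. Every mutant array lay below every WT array at 13 members (12.2% of all probe sets) and above at 0 (6.32%). Of the other 96 fallen probe sets 4 were called lower and 1 higher, and their median was -0.16.

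The firmest of these differences was at 264751_at, which read 8.81, 8.79 and 8.72 in the LBD38 mutant, against 9.89, 9.70 and 9.85 in WT FN. The groups did not overlap, and the difference was -1.04 ± 0.12 (log2 ± SE, limma adjusted p = 0.000138). Probe set 251677_at read 6.75, 6.63 and 6.85 in the LBD38 mutant, against 7.92, 7.59 and 8.0 in WT FN (-1.09 ± 0.20, limma adjusted p = 0.00792). At both, the 3 mutant arrays lay close together and about 1 log2 unit under WT.

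The glutaredoxin gene AT4G15680 read 7.08, 7.82 and 7.45 in the LBD38 mutant, against 8.59, 8.69 and 8.43 in WT FN. It was 2.17-fold lower (-1.12 ± 0.20, limma adjusted p = 0.00749), and without replicate 1 of the mutant the limma adjusted p was 0.0547. AT4G15700, of the same class, read 4.94, 5.53 and 5.4 in the LBD38 mutant, against 5.81, 6.29 and 5.95 in WT FN. It was 1.66-fold lower (-0.73 ± 0.14, limma adjusted p = 0.0143), and this call was lost without replicate 1 of the mutant (limma adjusted p = 0.085), without replicate 2 of WT (limma adjusted p = 0.0872) and when only these groups were fitted (limma adjusted p = 0.0671). The arrays of both genes did not overlap between the groups.

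Probe set 246114_at read 10.49, 10.44 and 10.67 in the LBD38 mutant, against 11.09, 10.99 and 11.31 in WT FN (-0.59 ± 0.13, limma adjusted p = 0.0243). The call was lost without replicate 1 or 2 of the mutant or replicate 1 or 3 of WT, with limma adjusted p-values of 0.0762 to 0.106. Its groups did not overlap. AT1G49500 narrowly missed the threshold, with 9.5, 9.55 and 9.34 in the LBD38 mutant, against 9.91, 10.19 and 10.13 in WT FN (-0.62 ± 0.15, limma adjusted p = 0.0534).

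The LBD37 mutant had 1 of 28 members lower than WT and 0 higher (limma), where 0.0528% of all probe sets were called lower and 0.136% higher. Its median over the members was 0.02, against -0.02 over all probe sets, and 16 of 28 were above 0 (41.5% of all probe sets). At an unadjusted limma p of 0.05 or less there were 9 members with the LBD37 mutant (7.42% of all probe sets) and 12 with the LBD38 mutant (11.7%). Every LBD37 mutant array lay above every WT array at 3 members (5.64% of all probe sets) and below at 4 (8.31%).

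That member was AT3G12900, the scopoletin 8-hydroxylase gene, which read 6.78, 6.76 and 6.64 in the LBD37 mutant, against 7.49, 7.76 and 7.87 in WT FN. The groups did not overlap and the difference was -0.98 ± 0.15 (limma adjusted p = 0.00854). Without replicate 3 of the LBD37 mutant the limma adjusted p was 0.0563. In the LBD38 mutant the gene read 6.63, 7.06 and 7.35 (-0.69 ± 0.15 from WT, limma adjusted p = 0.0247). It was thus the 1 member called lower than WT in both mutants. That second call was lost without replicate 1 or 2 of the LBD38 mutant, without replicate 2 or 3 of WT, and when only these groups were fitted, with limma adjusted p-values of 0.0575 to 0.142.

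A pair of probe sets without a listed gene came close in the LBD37 mutant. Probe set 254550_at read 10.36, 10.45 and 10.28, against 10.87, 11.05 and 11.55 in WT FN (-0.79 ± 0.16, limma adjusted p = 0.0561). Probe set 251677_at read 6.66, 7.5 and 6.59, against 7.92, 7.59 and 8.0 in WT FN (-0.92 ± 0.20, limma adjusted p = 0.0752). Neither overlapped with WT.

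Between the mutants, 7 of 28 members were higher in the LBD37 mutant than in the LBD38 mutant and 0 were lower (limma), where 1.5% of all probe sets were called higher and 1.1% lower. The median difference was 0.19 (log2), against 0.01 over all probe sets, and 24 of 28 were above 0 (54.9% of all probe sets). At 14 members every array of the LBD37 mutant exceeded every array of the LBD38 mutant, where 13.9% of all probe sets did so, and at 1 member every array was lower (10.4%). At an unadjusted limma p of 0.05 or less there were 11 members (12.7% of all probe sets). The other 96 fallen probe sets had 7 called higher and 2 lower, with a median of 0.20, so the shift of the median is not particular to the members.

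The widest gap was at 252367_at, which read 10.59, 10.74 and 10.38 in the LBD37 mutant, against 8.81, 9.06 and 9.70 in the LBD38 mutant. It was 2.61-fold higher (1.38 ± 0.21, limma adjusted p = 0.00093). The mean of WT FN, whose arrays read 9.34, 9.64 and 10.34, lay between them. Neither mutant passed the test against WT, at 0.80 with the LBD37 mutant (limma adjusted p = 0.179) and -0.59 with the LBD38 mutant (limma adjusted p = 0.228).

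Probe set 249862_at had the same order, with 10.19, 10.50 and 10.06 in the LBD37 mutant, against 8.95, 9.13 and 9.21 in the LBD38 mutant (1.15 ± 0.22, limma adjusted p = 0.0078). AT1G49500 read 10.01, 10.69 and 9.89 in the LBD37 mutant, against 9.5, 9.55 and 9.34 in the LBD38 mutant (0.73 ± 0.15, limma adjusted p = 0.0107). The groups did not overlap at either. The first call was lost without replicate 2 of the LBD37 mutant (limma adjusted p = 0.0524) and the second without replicate 3 of the LBD38 mutant (limma adjusted p = 0.0627).

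The 2 glutaredoxin members were also higher in the LBD37 mutant. AT4G15700 read 5.93, 6.38 and 6.0 there, against 4.94, 5.53 and 5.4 in the LBD38 mutant (0.81 ± 0.14, limma adjusted p = 0.00337), and AT4G15680 read 8.37, 8.56 and 7.92, against 7.08, 7.82 and 7.45 (0.84 ± 0.20, limma adjusted p = 0.0303). The AT4G15680 call was lost without replicate 1 or 2 of the LBD37 mutant or replicate 1 or 3 of the LBD38 mutant, with limma adjusted p-values of 0.0976 to 0.181, whereas that of AT4G15700 held when any 1 array of the mutants was left out.

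Probe set 264751_at read 9.13, 9.74 and 9.24 in the LBD37 mutant, against 8.81, 8.79 and 8.72 in the LBD38 mutant (0.60 ± 0.12, limma adjusted p = 0.00982), a call lost without replicate 3 of the LBD38 mutant (limma adjusted p = 0.0515). Probe set 246114_at read 11.12, 11.12 and 11.15, against 10.49, 10.44 and 10.67 (0.60 ± 0.13, limma adjusted p = 0.0136). It lost its call when any array except replicate 3 of the LBD38 mutant was left out, at limma adjusted p-values of 0.0518 to 0.0651. The groups did not overlap at either probe set.

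Single arrays moved with these counts. Replicate 2 was the highest LBD37 mutant array at 21 of 28 members (75%), against 41.5% of all probe sets, and without it 4 members were called higher in the LBD37 mutant than in the LBD38 mutant. Leaving out replicate 3 of the LBD38 mutant also gave 4, and leaving out any other array of the mutants gave 5 to 7. In WT FN, replicate 3 was the highest array at 15 members (53.6%), against 23.2% of all probe sets.

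At AT2G20670 a single array, replicate 2 of the LBD37 mutant, stood high. The gene read 7.65, 9.00 and 7.64 in the LBD37 mutant, against 7.12, 7.31 and 7.10 in the LBD38 mutant. The difference was 0.92 ± 0.26 and did not pass (limma adjusted p = 0.0768), although the groups did not overlap.

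**Figure D3:**
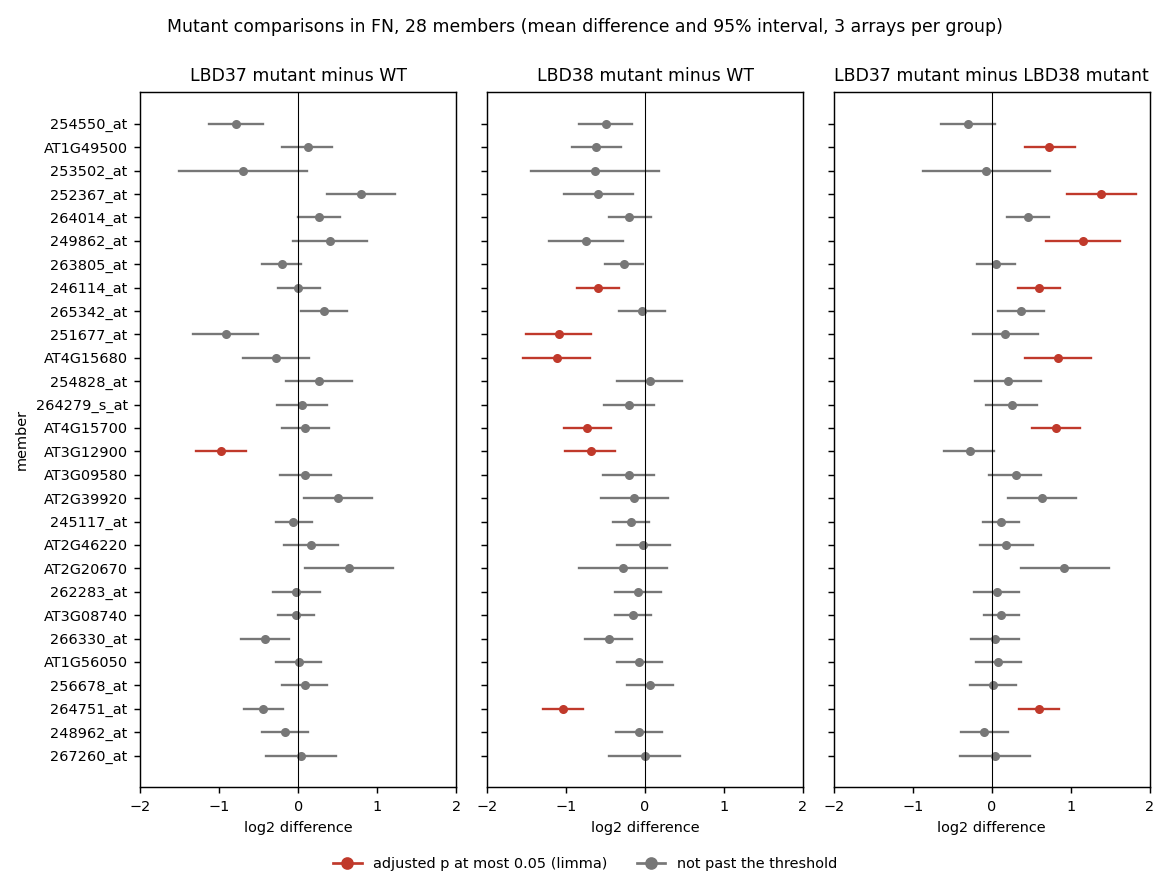
Log2 difference with its 95% interval for the 28 members in FN, 3 arrays per group, as LBD37 mutant minus WT, LBD38 mutant minus WT and LBD37 mutant minus LBD38 mutant, with red marking a limma adjusted p of at most 0.05. In the right panel 24 of 28 points lie above 0 (54.9% of all probe sets), as do all 7 red ones. In the middle panel 26 of 28 lie below 0 and 2 above, where 37.2% of all probe sets lie above.

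The glutaredoxin members can be set among their relatives. AT4G15680 and AT4G15700 belong to a run of 5 neighbouring CC-type glutaredoxin genes, from AT4G15660 to AT4G15700, of which 4 have a probe set with 1 listed gene. Such tandem copies resemble each other, and signal shared between their probe sets was not tested.

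AT4G15680 read 6.04, 5.93 and 5.47 in WT noN, against 8.59, 8.69 and 8.43 in WT FN (6.76-fold lower). The LBD37 overexpresser read 5.82, 6.0 and 6.14 and the LBD38 overexpresser 5.76, 5.30 and 5.97. AT4G15700 read 3.38, 3.31 and 3.51 in WT noN, against 5.81, 6.29 and 5.95 in WT FN (6.15-fold lower). Its signal in noN was as low as 3.31 to 3.63 in all 3 genotypes.

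The measured neighbours were not members. AT4G15690 fell by 2.74 (log2) in WT noN, but its LBD37 overexpresser minus WT was 0.47, with 4.38, 4.41 and 4.51 in the LBD37 overexpresser, against 4.11, 4.11 and 3.67 in WT noN (limma adjusted p = 0.233). AT4G15660 fell by 1.93, just short of the bound, and its overexpresser differences were -0.26 with LBD37 and -0.10 with LBD38. AT4G15690 and AT4G15660 read below the lower quartile of the array on all 9 noN arrays. In FN, AT4G15690 read 6.66, 7.11 and 6.94 in the LBD37 mutant, against 5.38, 6.67 and 5.57 in the LBD38 mutant. It was called higher in the LBD37 mutant (1.03 ± 0.27, limma adjusted p = 0.047), but the groups overlapped. AT4G15660 did not pass (0.64, limma adjusted p = 0.17).

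**Figure D4:**
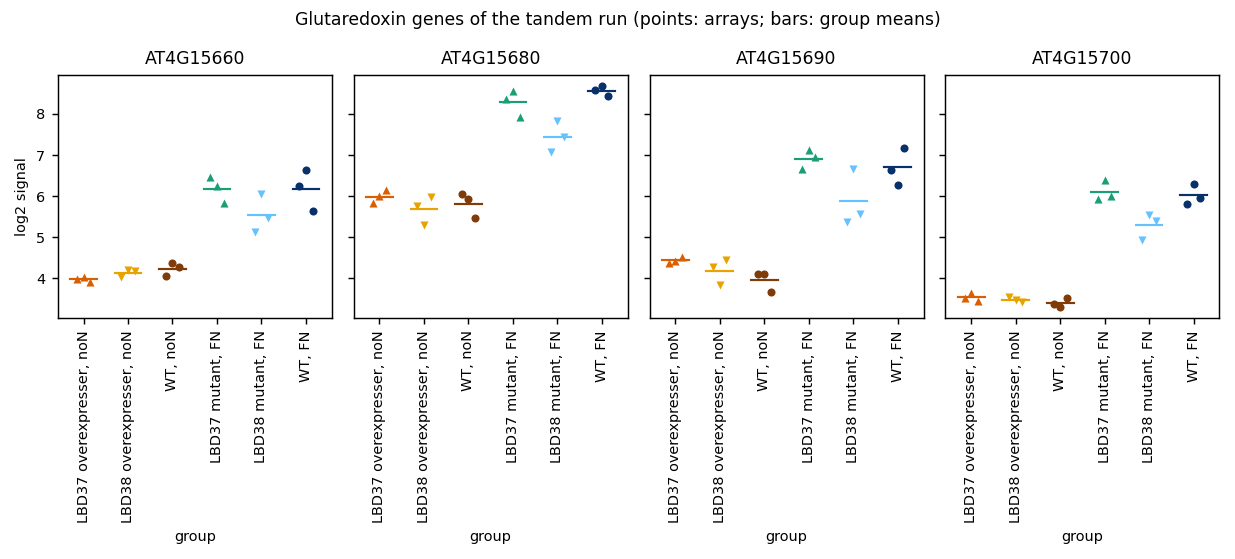
Log2 signal of 4 neighbouring CC-type glutaredoxin genes by group, with points for single arrays and bars for means of 3 arrays. In all 4 genes the noN groups lie below the FN groups, and the LBD38 mutant has the lowest mean of the FN groups, for AT4G15700 at 5.29 against 6.10 in the LBD37 mutant and 6.02 in WT.

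Over the whole class, 17 of 21 listed CC-type glutaredoxin genes were measured. Of the 15 that are no members, 9 were lower in WT noN than in WT FN and 6 higher (limma, adjusted p threshold 0.05), where 26.6% of all probe sets were called lower and 23.5% higher. AT5G18600 fell by 3.17 (log2), further than either member, whereas AT2G47880 was higher by 2.75. Among the lower genes, AT1G03020, AT3G62950 and AT5G14070 read below the lower quartile on all 9 noN and all 9 FN arrays. They differed by only -0.22, -0.38 and -0.22. The class therefore divided in direction.

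Its overexpresser differences divided too. In noN, 1 of these 15 was higher than WT with LBD37 and 7 were lower (limma, 7.21% and 11.3% of all probe sets), and with LBD38 2 were higher and 6 lower (limma, 9.26% and 8.66%). Over all probe sets the LBD37 calls split into 1639 higher and 2564 lower as deposited, and into 2241 and 2195 after centring. For AT2G47880 the log2 difference was -3.08 with LBD37 and -2.35 with LBD38. For AT5G18600, already lower in WT noN than in WT FN, it was -0.67 and -0.62. AT4G15680 and AT4G15700 lay within 0.17 of WT in both lines, as the rule requires of them. In FN the 17 genes had 0 calls in the LBD37 mutant (limma, 0.136% of all probe sets higher and 0.0528% lower). In the LBD38 mutant 0 were higher and 2 lower (0.589% and 0.598%). Both are members, for which a value below WT FN is partly built in. Between the mutants 3 were higher and 1 lower in the LBD37 mutant (1.5% and 1.1%). Of the 15 that are no members, 1 was higher and 1 lower there.

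AT3G12900 acts in iron acquisition, and a list of other iron deficiency genes was read beside it. Of 19 listed genes 3 were measured with a probe set of 1 gene, and all 3 were lower in WT noN than in WT FN (limma, adjusted p of 0.00307 or less), where 26.6% of all probe sets were called lower. AT1G47400, an IRON MAN peptide gene, fell by 4.29 and the transcription factor genes BHLH101 (AT5G04150) and PYE (AT3G47640) by 1.17 and 0.53. These 3 genes are no members. The first differed from WT in both overexpressers, by 0.74 with LBD37 (limma adjusted p = 0.0382) and 1.15 with LBD38 (limma adjusted p = 0.00211). The other listed iron genes had no probe set of 1 gene. Members given by probe set only were not matched to the list and may include some of them.

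BHLH101 lay 0.03 and 0.00 from WT in noN with LBD37 and LBD38 overexpression. It read below the lower quartile of the array on all 9 noN arrays and on 5 of the 9 FN arrays, so its differences were measured among dim signals. In FN it was lower than WT in the LBD38 mutant (-0.88, limma adjusted p = 0.005), and it did not pass in the LBD37 mutant (-0.34, limma adjusted p = 0.639). These 3 genes were named after their values had been seen, and BHLH101 falls short of the depletion bound.

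Among their genes measured by a probe set with 1 listed gene, the remaining lists on nitrogen, sugar, growth and defence held no member. These were the nitrate transporters (2 measured), nitrate reduction and reductant supply (3), nitrate-responsive regulators (3), cytokinin genes (2), sugar-repressed genes (2), jacalin lectins (7), glucosinolate synthesis (2) and photosynthesis (3). The lists of ammonium assimilation and aquaporins had 0 genes measured by a probe set with 1 listed gene. The 18 members given by probe set only were not matched to any list. Whether they hold genes of these lists is therefore not known here. In WT noN, 6 of 7 jacalin lectin and PYK10 complex genes and 3 of 3 photosynthesis genes were lower than in WT FN (limma, 26.6% of all probe sets lower), while 3 of 3 genes for nitrate reduction and reductant supply, all of them 6-phosphogluconate dehydrogenases, were higher (23.5%).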

How the data were processed

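The deposited table holds a log2 signal for each probe set on each array, computed by the authors with RMA, as the submitters' processing notes list it. The version of RMA and the build of the probe annotation are not given in the sources used here, and the array images were not used here. Of 22810 probe sets 64 controls were left out. The platform table lists 1 gene for 13513 of the other 22746 probe sets, several for 503 and none for 8730, and loci came from the RefSeq table of TAIR10.1. Differences came from lmFit and eBayes without trend (limma 3.58.1, R 4.3.3) on all 18 arrays with 6 group means, 12 residual and 5.89 prior degrees of freedom. Tests were two-sided, with Benjamini-Hochberg adjustment over 22746 probe sets within each comparison and a threshold of 0.05. The script was tested on simulated data. For members, no p-value is given in the comparisons that the rule used. The members, gene lists and tests were chosen with earlier results of these data known. Values in single arrays, for the groups compared at each place, are given for the 12 deepest falls, members past the threshold in a mutant comparison and members of a gene list. Alternatives were a replicate block, other scalings, filters, variance models and thresholds, and leaving out each array. Promoter and protein sequences were not used here.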

Additional observations from a re-analysis of the deposited data

Results flagged for a closer look

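The LBD37 mutant differed from the LBD38 mutant at 7 members, by the direct test between the mutants in FN (limma adjusted p of 0.00093 to 0.0303, 3 arrays per group). Of all probe sets 1.5% were called higher and 1.1% lower. The log2 difference, LBD37 mutant minus LBD38 mutant, was 1.38 at 252367_at, 1.15 at 249862_at, 0.84 at AT4G15680, 0.81 at AT4G15700 and 0.73 at AT1G49500. It was 0.60 at 264751_at and 0.60 at 246114_at. All 7 were higher in the LBD37 mutant in 3 of 3 arrays. At 252367_at, 249862_at and AT1G49500 neither mutant was called against WT FN. Between the mutants, the calls at 252367_at and AT4G15700 held when any 1 mutant array was left out, and each of the other 5 was lost without at least 1 array.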

How the results depend on the processing

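The rule found 28 members, and 26 to 34 when any 1 of its 12 arrays was left out, of which 24 to 28 were among the 28. A depletion bound of -1.5 gave 101 and one of -2.5 gave 14, and an overexpresser window of 0.5 gave 55. Repeated quantile normalization gave 29 and centring 30. Members past the threshold in the LBD37 mutant against WT numbered 1, but 2 after centring and 2 with trend and robust eBayes, and 0 to 3 without 1 array (0 without replicate 3 of the mutant, 3 without its replicate 2, 2 without replicate 1 or 3 of WT, of which 1 was higher than WT without replicate 3). Without the dimmest 40% of probe sets it was also 1, but a different member, since AT3G12900 is among those left out. In the LBD38 mutant there were 6, but 3 with only probe sets of 1 listed gene, which leaves 10 members, 3 at an adjusted p under 0.01, and 2 to 6 without 1 array, the 2 being without replicate 1 of the mutant. Between the mutants there were 7, but 3 with only probe sets of 1 listed gene, 4 at an adjusted p under 0.01, and 4 to 7 without 1 array. With the replicate number as a block these 3 comparisons gave 1, 7 and 8 members. Same-numbered FN samples had deviations that correlated at -0.0566 to 0.256, not over 0.1 for every pair. The highest value was that of replicate 1 of the LBD38 mutant and WT. Whether some same-numbered samples shared a batch cannot be told from these values, and the main fits used no pairing. No called member changed direction under any alternative. Over all probe sets the LBD37 mutant had 43 calls, but 68 when only its groups were fitted, 25 with 1-gene probe sets, 13 at an adjusted p under 0.01 and 11 to 50 without 1 array. The LBD38 mutant had 270, but 111, 97 and 120 to 266 under the last 3 of these, and the mutants differed at 591, but at 1239 when fitted alone and at 272, 241 and 292 to 388. The overexpresser splits by scaling were added after seeing the data. The precision of every comparison is limited by 3 arrays per group.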
